A study of Mus musculus with 6 samples.

Results

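Small nucleolar RNA (snoRNA) genes were taken as all genes whose symbol is Snora or Snord followed by a digit. The array annotation held 100 such symbols, and 73 of them had a probe set that carried no other symbol. These 73 genes, 26 Snora and 47 Snord, are described here among the 22180 genes measured in that way. The other 27 symbols occurred only on probe sets shared with further genes and are given apart from the comparison. Where a gene had several probe sets, the one with the highest mean over the 6 arrays was used. Among the members that choice touched Snora19, whose 2 probe sets held identical values, and Snora33, whose 2 probe sets differed by −0.09 and −0.06 between the groups. The family was selected on its HDM minus PBS differences, which were already known to be mostly negative, so its counts and medians are a description of these arrays.

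snoRNAs are short non-coding RNAs of the nucleolus that guide chemical modification of other RNAs, mainly ribosomal RNA. Snord genes encode box C/D snoRNAs, which guide ribose methylation together with the proteins Nop56, Nop58, Snu13 and fibrillarin. Snora genes encode box H/ACA snoRNAs, which guide the change of uridine to pseudouridine with Dkc1, Gar1, Nhp2 and Nop10. In mammals most snoRNAs lie in introns of host genes and are trimmed out of the excised intron, and many hosts encode ribosomal proteins, nucleolar proteins or translation factors. Other hosts, such as Snhg1, Snhg12 and Gas5, make spliced transcripts without a known protein product. A few snoRNAs take part in cleavage of the ribosomal RNA precursor.

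The RNA came from lung CD4 T cells of wild-type mice that were sensitised and challenged with house dust mite (HDM), an allergen that provokes airway inflammation, or handled alike with PBS, a saline vehicle. Cells positive for CD45 and CD4 and negative for CD11b and F4/80 were sorted, and 3 HDM and 3 PBS samples were each hybridised to a Mouse Gene 2.0 ST array. No transgene or deletion was named, and strain background, age, dose, timing and the number of animals behind a sample are not stated in the labels. Values are log2 signals after RMA. The T cell genes Cd3e and Cd4 had mean signals of 12.8 and 12.5 in the PBS arrays and 12.9 and 12.7 in the HDM arrays, which goes with the label of the sort.

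The start sites of non-coding hosts are shown first because the results are later ordered by host. Many hosts of snoRNAs are known for a terminal oligopyrimidine tract, a C followed by further C or T bases at the 5′ end of the transcript. The 30 bases around the RefSeq start (build GRCm38.p6, host strand) are shown for the non-coding hosts that passed the test or that hold several members of this family. Capitals mark a C followed by at least 4 bases that are each C or T, with the run beginning within 5 bases of the start, searched on the transcribed strand alone.
Snhg12, chr4:132308663-132308692, plus strand: ggccgttctcagtCCTTTCTCgcttcatcc
Snhg1, chr19:8723472-8723501, plus strand: gttgttcttgtcggcctcatttttccttgt
2410006H16Rik, chr11:62602862-62602891, plus strand: tcacgcgccgtCTTTCTCTgcggccatcat
Snhg3, chr4:132353672-132353701, minus strand: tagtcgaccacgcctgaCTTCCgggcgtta
The run was present at Snhg12, 2410006H16Rik and Snhg3, and these letters did not occur in the Snhg1 window. Windows were found for 42 of the 53 host genes, and 17 of their 46 windows (37%) held the run, in 16 hosts. Over all 32851 RefSeq promoter windows the share was 18.3%. A match describes the letters only.

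Compared with PBS, most snoRNA genes had a lower mean signal in the HDM arrays, by a small amount. The HDM mean was below the PBS mean for 66 of 73 members, against 51.6% of all genes tested. The median difference, HDM minus PBS, was −0.30 on the log2 scale, against −0.01 over all genes, and single members ranged from −1.01 for Snord72 to 0.18 for Snord118. Without a block for the replicate number, 3 members fell and 0 rose at an adjusted p under 0.05 (limma, Benjamini-Hochberg over 22180 genes), beside a background of 1.56% of all genes lower and 2.39% higher. The 3 were Snord22, Snora30 and Snora28. At an unadjusted p under 0.05, 33 members were lower and 0 higher, and 9.17% of all genes were lower.

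Arrays that carry the same replicate number deviated together, though weakly in the pair numbered 2. That pair correlated at 0.17 over all genes, below the 0.25 of PBS replicate 1 with HDM replicate 2. The number as a block changed the count. With that block 26 members fell and 0 rose, against 6.01% and 5.95% of all genes lower and higher. Among all genes, those with a stronger signal were called more often, and 11.1% of those above the median signal fell with the block. Among members the share was alike, at 22 of 62 (35.5%) above that median and 35.6% of all 73. The 26 were 10 Snora and 16 Snord genes. All 3 HDM values lay below all 3 PBS values for 25 members (34.2%), while 11.8% of all genes had this order. Above the median signal it was 21 of 62 members (33.9%) and 18.4% of all genes. The order was as frequent in related sets described below, at 36.9% of ribosomal protein genes, 40% of Snhg genes and 52.8% of genes of nucleolar ribosome biogenesis. The opposite order was found in 0 members and in 10.8% of all genes. The arrays numbered 3 stood apart from the others, since 32 members had their lowest value in HDM replicate 3, and the median over members was 9.45 in PBS replicate 3 against 9.65 and 9.78 in PBS replicates 1 and 2. The medians in HDM replicates 1, 2 and 3 were 9.17, 9.41 and 8.98, so that the groups did not overlap in this measure.

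**Figure D1:**
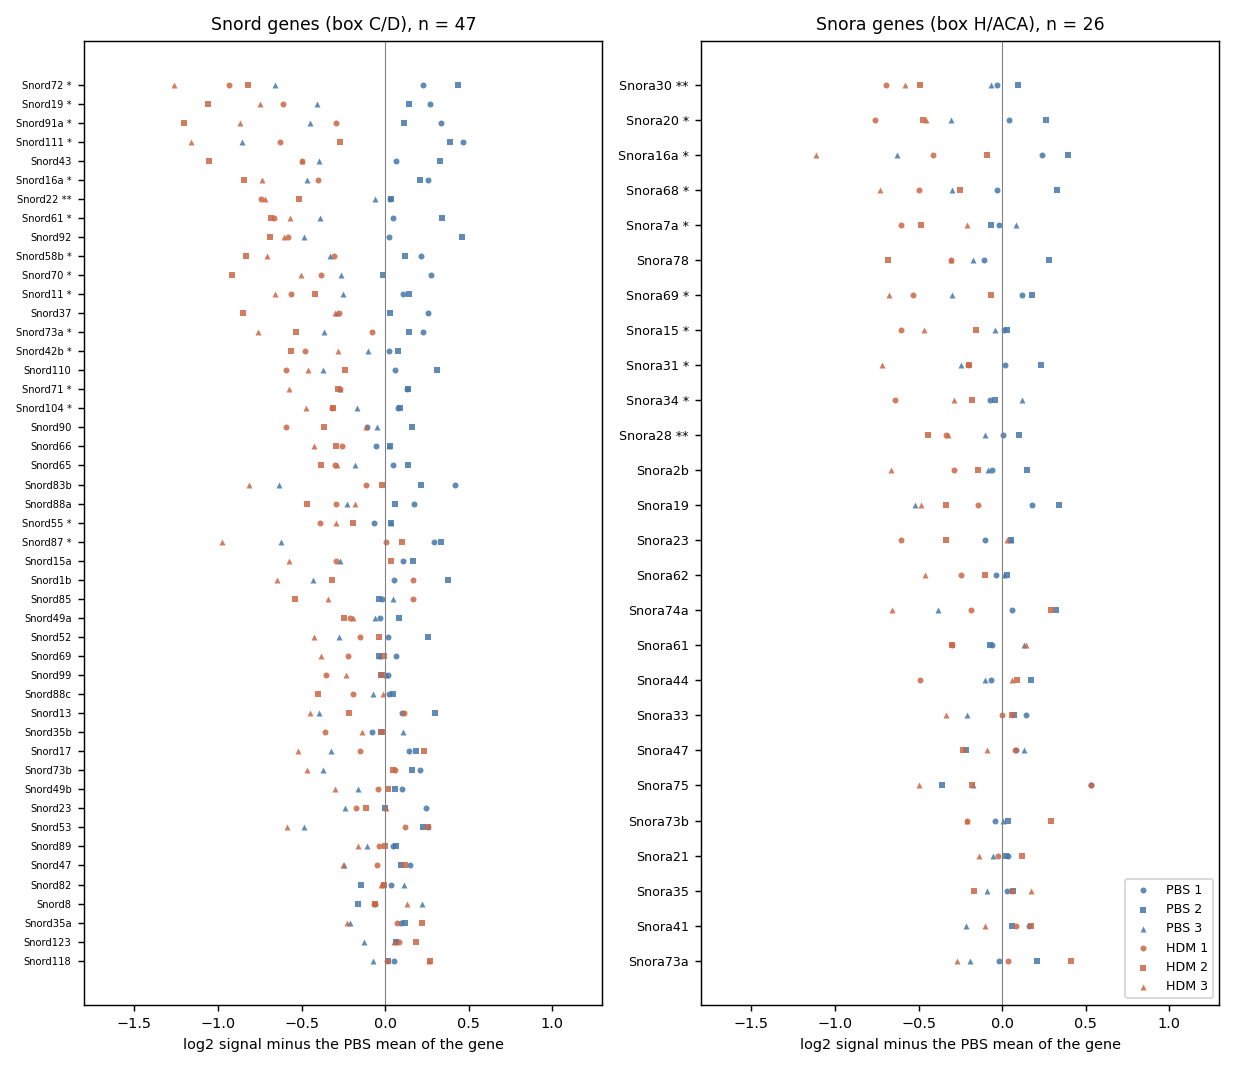
Log2 signal of each of the 47 Snord genes (left) and 26 Snora genes (right) in each array, minus that gene's mean over the 3 PBS arrays, ordered by the HDM minus PBS difference. PBS is blue, HDM is orange, and circles, squares and triangles are replicates 1, 2 and 3; a double asterisk marks a member that fell without the replicate block and with it, a single asterisk one that fell with the block alone. In most rows the orange points lie to the left of the blue ones, and the triangles of both colours often lie left of the other arrays of their group.

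The count without a block depended on single arrays, and the share of all genes called lower moved with it. It was 0 without PBS replicate 1, 0 without PBS replicate 2 and 0 without HDM replicate 1, beside 0.293%, 0.185% and 0.316% of all genes. It was 2 without HDM replicate 2, 11 without PBS replicate 3 and 6 without HDM replicate 3, beside 0.248%, 1.56% and 3.26% of all genes. In the fits with a count of 0, limma at an unadjusted p under 0.05 gave 23, 19 and 26 members lower and 0, 0 and 1 higher. The share of all genes at that looser threshold was not computed for these fits. Without both arrays numbered 3, a setting chosen after seeing the data, 28 members and 5.98% of all genes fell, and the median difference over members was −0.29. In a comparison of arrays with the same number, 66 members were lower in HDM replicate 1 than in PBS replicate 1, 57 in the arrays numbered 2 and 63 in those numbered 3. For 47 members the HDM array was the lower one in all 3 pairs, as it was for 24.1% of all genes. The p-values rest on the variation among the 6 samples, which may be partly technical, and fewer cells of a type cannot be told apart from less RNA per cell in bulk RNA.

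Among the members that fell in either fit, Snord22 had the smallest adjusted p without the block. It is counted with the snoRNAs that act in cleavage of the ribosomal RNA precursor, and it lies in Snhg1. Its log2 signals were 9.80, 9.81 and 9.71 in PBS replicates 1 to 3 and 9.03, 9.26 and 9.05 in the HDM replicates. All HDM arrays were below all PBS arrays, and the gap between the groups was wider than the spread within either. The difference was −0.66 ± 0.10 (SE, n = 3 per group), a 1.58-fold lower signal, with an adjusted p of 0.0112 by limma. Snord22 lost the call without PBS replicate 1, PBS replicate 2 or HDM replicate 1, where its adjusted p by limma was 0.0604, 0.0734 and 0.0587.

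Snora30 and Snora28 are box H/ACA snoRNAs that guide pseudouridylation of ribosomal RNA, and they lie in Srcap, which encodes a chromatin remodeller, and in Eif5, which encodes a translation initiation factor. Snora30 read 9.28, 9.40 and 9.24 in the PBS arrays and 8.61, 8.81 and 8.72 in the HDM arrays. The groups were again apart, with HDM replicate 1 lowest, and the difference was −0.59 ± 0.10 (SE, n = 3 per group, limma adjusted p = 0.0184). Snora28 read 11.68, 11.77 and 11.57 in the PBS arrays and 11.34, 11.23 and 11.35 in the HDM arrays. Here the HDM arrays lay close together and below all PBS arrays, and the difference was −0.37 ± 0.08 (SE, n = 3 per group, limma adjusted p = 0.0427). Each of these genes lost its call in 4 of the 6 fits that left out an array, with limma adjusted p up to 0.103 for Snora30 and 0.2 for Snora28.

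The 4 largest differences were in Snord genes that passed only with the replicate block, Snord72, Snord19, Snord91a and Snord111. Snord72, from an intron of the ribosomal protein gene Rpl37, read 7.98, 8.19 and 7.10 in the PBS arrays and 6.82, 6.93 and 6.49 in the HDM arrays. PBS replicate 3 stood nearer to the HDM arrays than to the other PBS arrays, but the groups did not overlap. The difference of −1.01 ± 0.27 (SE, n = 3 per group), 2.01-fold lower, had a limma adjusted p of 0.0913 without the block and 0.00472 with it. Snord19, from Gnl3, whose product is a nucleolar protein of proliferating cells, read 5.90, 5.78 and 5.23 in the PBS arrays and 5.03, 4.58 and 4.89 in the HDM arrays. Its groups were apart too, by a narrow margin at PBS replicate 3. The limma adjusted p of its difference of −0.81 was 0.0608 without the block and 0.0194 with it.

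Snord16a, from the ribosomal protein gene Rpl4, shows the pattern that separated both fits. It read 11.28, 11.24 and 10.56 in the PBS arrays and 10.62, 10.18 and 10.29 in the HDM arrays. PBS replicate 3 lay below HDM replicate 1, so the groups overlapped, while each HDM array was below the PBS array of its number. Its difference of −0.66 had a limma adjusted p of 0.13 without the block and 0.0212 with it. Snora16a, from Snhg12, went further in the same way, with 11.11, 11.27 and 10.24 in the PBS arrays and 10.46, 10.79 and 9.76 in the HDM arrays. Both arrays numbered 3 were the lowest of their group, and the limma adjusted p of its difference of −0.54 moved from 0.451 to 0.00329 with the block.

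The other Snord genes among the 12 largest falls with the block were Snord91a at −0.79, Snord111 at −0.69, Snord61 at −0.64, Snord58b at −0.62, Snord70 at −0.60 and Snord11 at −0.55. Snord70 and Snord11 share the host Nop58, which encodes a core protein of box C/D particles, and Snord58b lies in Rpl17. Snora20, from the chaperonin gene Tcp1, was the second Snora gene in that set at −0.56. Snord43, at −0.68, and Snord92, at −0.62, had separate groups yet did not pass in either fit, with limma adjusted p of 0.143 and 0.163 without the block and 0.0845 and 0.068 with it. The remaining members that fell with the block, of both families, had differences between −0.49 for Snora68 and −0.29 for Snord87.

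The Snora and Snord families had close medians. The median difference was −0.31 over 26 Snora genes and −0.29 over 47 Snord genes. The HDM mean was lower in 23 Snora and 43 Snord genes, and the groups were apart in 9 and 16 of them, a share of 34.6% and 34%. Snord genes covered the wider range, from −1.01 to 0.18, while Snora genes ran from −0.59 to 0.06. By pairs of arrays, the Snora median was −0.24, −0.23 and −0.22 for replicates 1, 2 and 3, and the Snord median was −0.34, −0.42 and −0.18. The Snora pairs were near each other, and the Snord pairs differed more among themselves than their overall median differed from that of Snora. No test between the families was made.

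On each array, the median Snora signal was 10.12, 10.29 and 9.81 in the PBS replicates and 9.83, 10.29 and 9.60 in the HDM replicates. The median Snord signal was 9.54, 9.44 and 9.07 in the PBS replicates and 9.03, 9.21 and 8.89 in the HDM replicates. Both families overlapped between the groups in this measure, with PBS replicate 3 low in each.

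**Figure D2:**
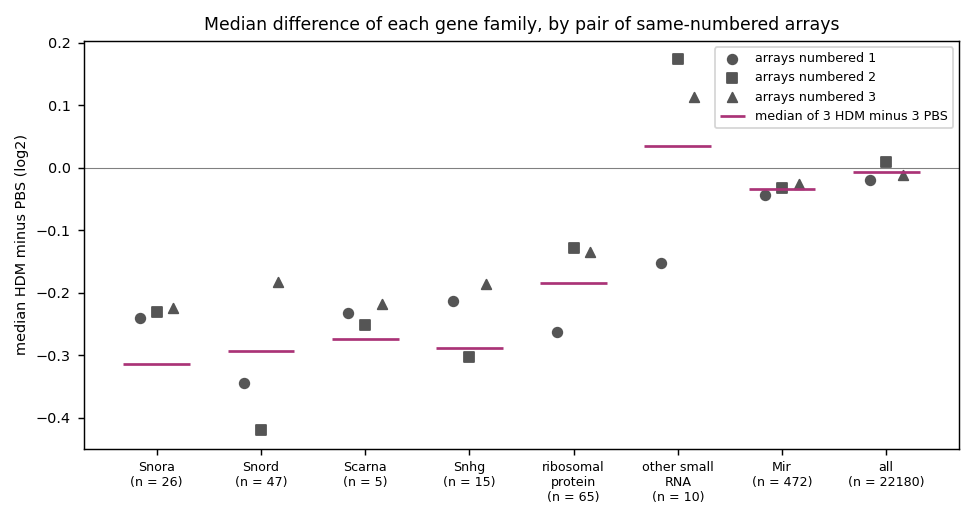
Median HDM minus PBS difference (log2) of each gene family, with circles, squares and triangles for the pairs of arrays numbered 1, 2 and 3 and a bar for the median of the difference of group means. Snora and Snord lie below 0 in every pair, and so do Scarna, Snhg, ribosomal protein and Mir genes, the last at −0.04, −0.03 and −0.03. The median of all genes lies between −0.02 and 0.01.

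The 6 Snora and 6 Snord genes with the strongest signal were mixed. Of these 12, Snora69 and Snora28 fell, Snora28 in both fits and Snora69 only with the block, at −0.43 (limma adjusted p = 0.0171 with the block). Snora23 had a difference of −0.30 and did not pass in either fit. Snora33, with a mean signal of 13.12, differed by −0.09, Snora75 by −0.05 and Snora21 by −0.02. Among the Snord genes, Snord99 differed by −0.20, Snord73b by −0.12, Snord49b by −0.11, Snord89 by −0.07, Snord82 by −0.02 and Snord35a by 0.02. The SEs of these 12 differences ran from 0.07 for Snord89 to 0.30 for Snora75, so their precision was unequal.

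Snord genes with a strong signal tended to have differences nearer to 0. Across the 47 Snord genes the Spearman correlation of mean signal with difference was 0.51, and across the 26 Snora genes it was −0.01. All points share the same 6 arrays, and the signal of a probe set depends on its probes as well as on the RNA.

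**Figure D3:**
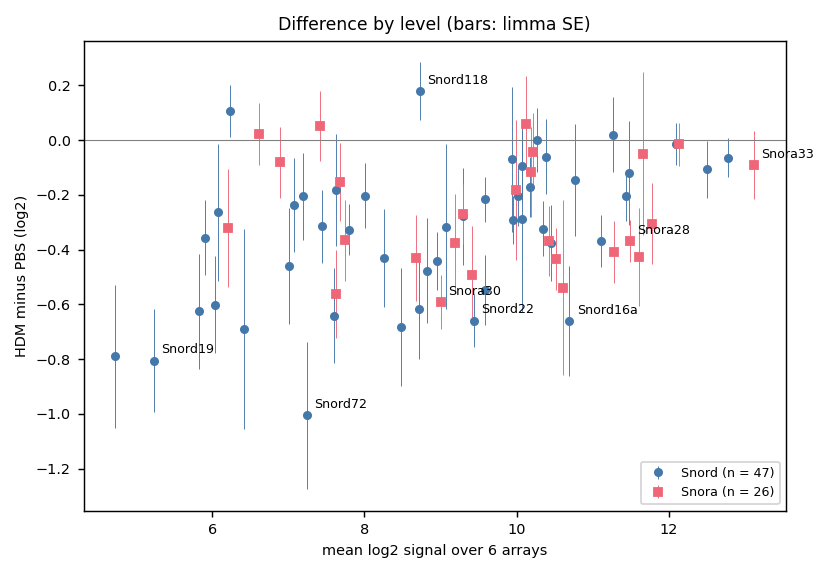
HDM minus PBS difference (log2) against mean log2 signal over the 6 arrays for 47 Snord (circles) and 26 Snora genes (squares), with limma SEs as bars. Snord72 is the lowest point at −1.01, Snord118 the highest at 0.18, and the brightest Snord genes lie near 0.

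Of the snoRNAs with a Snora or Snord symbol that were listed for cleavage of the ribosomal RNA precursor, 5 were measured and 1, Snord22, fell. Snord118, also called U8, is needed for processing of the large-subunit RNAs. It read 8.69, 8.66 and 8.56 in the PBS arrays and 8.64, 8.90 and 8.90 in the HDM arrays. The groups overlapped at HDM replicate 1, and the difference was 0.18 ± 0.11 (SE, n = 3 per group, limma adjusted p = 0.444). Snord13, at −0.18, Snora73b, at −0.04, and Snora73a, at 0.06, likewise did not pass with or without the block. Rnu3a, a gene of the U3 snoRNA that acts in the same cleavage but is not among the 73 by its symbol, read 10.54, 10.57 and 9.55 in the PBS arrays and 10.26, 11.38 and 9.64 in the HDM arrays. Its groups overlapped, and the difference was 0.20 ± 0.44 (SE, n = 3 per group, limma adjusted p = 0.872). Snora73a and Snora73b both lie in Snhg3. Snord118, Snord13 and Snord89 lie inside no other RefSeq gene, and their median difference was −0.07. None of these 3 passed in either fit (limma), 0 of them did so at an unadjusted p under 0.05, and with 3 genes no test against the intronic members was made.

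A single host was settled for 67 members, which lie in 53 genes, from RefSeq gene spans without strand. For 56 of these members the host was itself measured, which gave 56 pairs over 42 hosts. Host genes were lower in HDM as well: 40 of 42 had a lower mean, with a median of −0.21. Among all genes 51.6% had a lower mean, and 55.7% of those above the median signal did. Without the block 6 hosts fell, Gnl3, Snhg1, Wdr43, Nop58, Snhg12 and Nop56, and with it 13 did, while 0 rose in either fit. Of all genes 1.56% fell without the block and 6.01% with it. Above the median signal these shares were 2.96% and 11.1%.

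In 48 of the 56 pairs both the snoRNA and its host had a lower mean in HDM, in 4 the snoRNA alone and in 4 the host alone. Lower means were so common among both members and hosts that a count near this arises even where the signs are unrelated. The count therefore does not show that a snoRNA goes with its own host. The size of the difference in the host and in its snoRNA varied largely apart. Across pairs Pearson's r was 0.15 and Spearman's rho was 0.08, given as a description since pairs share hosts and arrays. The snoRNA difference was below that of its host in 30 pairs and above it in the other 26. Array probes for an intronic snoRNA can also bind unspliced host RNA, and which of these forms gave the signal cannot be told apart here.

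**Figure D4:**
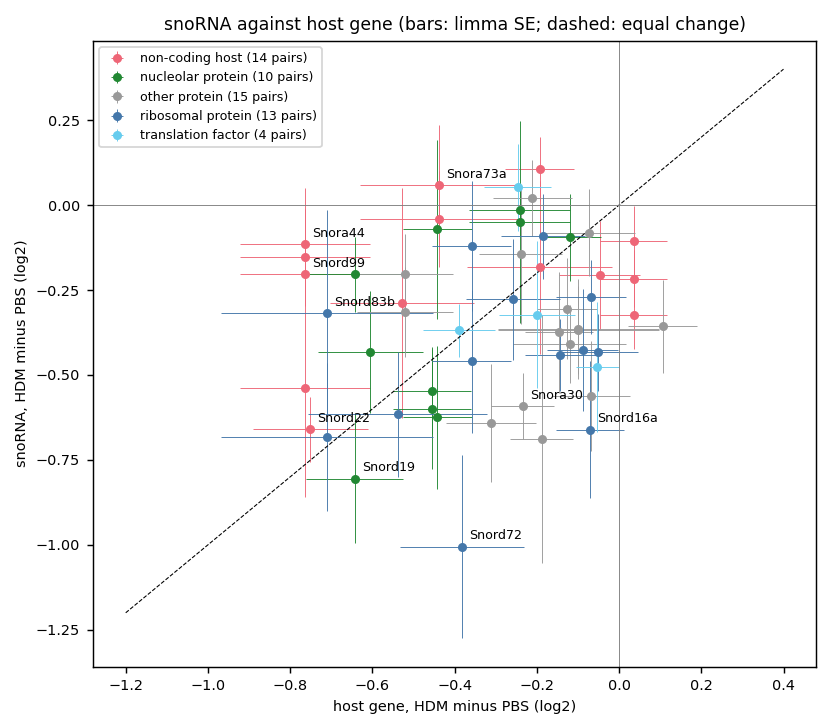
HDM minus PBS difference (log2) of each snoRNA against that of its host gene, for 56 pairs over 42 hosts, with colours for the type of host, limma SEs as bars and a dashed line where both differ equally. Most points lie in the lower left, where 48 pairs are found, and they spread to both sides of the line.

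The closest pair among members that fell without the block was Snora28 with Eif5. Eif5 read 11.51, 11.66 and 11.43 in the PBS arrays and 11.13, 11.06 and 11.25 in the HDM arrays. Its groups were apart, and its difference of −0.39 ± 0.09 (SE, n = 3 per group) was like the −0.37 of Snora28, with a limma adjusted p of 0.0537 without the block and 0.0266 with it. Snhg1, the host of Snord22, read 11.11, 11.18 and 10.72 in the PBS arrays and 10.18, 10.14 and 10.44 in the HDM arrays. It fell by 0.75 ± 0.14 (SE, n = 3 per group, limma adjusted p = 0.0287), and HDM replicate 3 was its highest HDM array, whereas Snord22 was lowest in HDM replicate 1. Srcap, the host of Snora30, had a difference of −0.23 ± 0.08 (SE, n = 3 per group) and did not pass, with a limma adjusted p of 0.15.

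snoRNAs that share a host differed in size of change in several hosts. Snhg12 held 4 members, and the host fell by 0.76 ± 0.16 (SE, n = 3 per group, limma adjusted p = 0.0399). Snora16a in it differed by −0.54, Snord99 by −0.20, Snora61 by −0.15 and Snora44 by −0.12, and of these Snora16a alone passed, with the block. 2410006H16Rik held 3 members, and its own difference was 0.04. Snord65, Snord49a and Snord49b in it differed by −0.32, −0.22 and −0.11, and none passed with or without the block, although at an unadjusted p under 0.05 limma gave 2 of them lower. The differences between members of a host were not tested.

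Hosts with a pair of members showed both wide and narrow gaps. In Gnl3, Snord19 differed by −0.81 and Snord69 by −0.20, beside −0.64 in the host. In Wdr43, which encodes a nucleolar protein of the small-subunit processome, Snord92 differed by −0.62 and Snord53 by −0.07, beside −0.44 in the host. In Rps3a1, Snord73a differed by −0.46 and Snord73b by −0.12. By contrast, Snora34 and Snora2b in Kansl2 both differed by −0.37, and Snord70 and Snord11 in Nop58 by −0.60 and −0.55. Snora75 and Snord82 in Ncl, the nucleolin gene, differed by −0.05 and −0.02.

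By type of host, snoRNAs from ribosomal protein genes had the lowest median. Over 19 such members it was −0.43, and 0 of them fell without the block and 9 (47.4%) with it. The 13 with a measured host had a median of −0.43, beside −0.18 over their 11 hosts, of which Rpl4 at −0.07 and Rpl32 at −0.05 are examples with the members Snord16a at −0.66 and Snora7a at −0.43. The order was the other way round for non-coding hosts, where 14 members had a median of −0.19 and 8 hosts one of −0.32, and for nucleolar protein genes, where 10 members had a median of −0.32 and 6 hosts one of −0.45. Members from translation factor genes had a median of −0.33 (n = 5) and those from other protein genes −0.36 (n = 16). With the block 1 of these 5 and 7 of these 16 (43.8%) fell. From nucleolar protein genes 3 of 10 did so, and from non-coding hosts 4 of 17. Of all genes 6.01% fell with the block, and 11.1% of those above the median signal. No test was made between host types.

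Of 3 measured core proteins of box C/D particles 2 fell, Nop56 and Nop58, and both are among the 6 hosts already counted. Nop56 read 11.05, 11.25 and 11.13 in the PBS arrays and 10.40, 10.40 and 10.82 in the HDM arrays, and it fell by 0.61 ± 0.13 (SE, n = 3 per group, limma adjusted p = 0.0431). Nop58 fell by 0.45 ± 0.10 (SE, n = 3 per group, limma adjusted p = 0.0426). In both the groups were apart. Snu13, the other measured core protein, had a difference of −0.15. Of 4 measured box H/ACA core proteins 0 passed without the block, while at an unadjusted p under 0.05 limma gave 1 lower. That gene was Dkc1, the pseudouridine synthase, with a difference of −0.39 and a limma adjusted p of 0.132 without the block and 0.0158 with it.

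Factors that assemble or trim snoRNAs passed only with the block. Of 11 assembly factors 0 passed without the block by limma, 3 were lower at an unadjusted p under 0.05, and 3 fell with the block, Rpap3 at −0.49, Nufip1 at −0.41 and Rrp9 at −0.33. The HDM mean was lower in 7 of the 11 and higher in 4. Of 14 trimming and exosome genes 0 passed without the block by limma, 3 were lower and 1 higher at an unadjusted p under 0.05, and 2 fell with the block. Of 53 genes of nucleolar ribosome biogenesis 3 fell, Gnl3, Wdr43 and Wdr75, the last at −0.38, and 13 fell with the block. Gnl3 and Wdr43 are among the hosts already counted. The HDM mean was lower in 49 of these 53 genes, with a median difference of −0.23. Of 65 ribosomal protein genes 0 passed without the block by limma, 24 were lower at an unadjusted p under 0.05 and 14 fell with the block, with a median of −0.18. Beside these lists and the core proteins, 1.56% of all genes fell without the block and 6.01% with it. By limma 9.17% of all genes were lower at an unadjusted p under 0.05. Above the median signal of all genes the shares that fell were 2.96% and 11.1%. Trimming and exosome genes, at 14.3% with the block, lay near the last of these.

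Among other non-coding RNAs, chosen after their values were seen, small RNAs made from genes of their own had a median near 0. Over 10 such genes it was 0.04, with Rn7sk, the regulator of transcription elongation, at 0.00, Rpph1, the RNase P RNA, at 0.08, and Terc, the telomerase RNA, at −0.08. Single genes ran from −0.44 for Vaultrc5 to 0.31 for Rnu11, and 5 had a lower and 5 a higher HDM mean. By limma 0 of the 10 passed without the block, 1 was higher at an unadjusted p under 0.05, and Rnu11 at 0.31 rose with the block. Scarna genes, which encode relatives of snoRNAs in Cajal bodies, had a median of −0.27 over 5 genes, from −0.50 for Scarna17 to 0.26 for Scarna10. Of these 5, 0 passed without the block by limma, 3 were lower at an unadjusted p under 0.05 and 3 fell with the block. The 15 genes named Snhg had a median of −0.29, and Snhg1, Snhg7 and Snhg12 fell, while 5 of the 15 did so with the block. Snhg1 and Snhg12 are among the hosts already counted. Of all genes 1.56% fell without the block and 6.01% with it. The 472 microRNA genes had a median of −0.03.

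Markers of some other cells moved between the same groups. Of 16 macrophage and monocyte markers 4 rose, Retnla by 3.85, Mmp12 by 2.59, Chil3 by 2.11 and Itgax by 1.06, and 5 rose with the block, which added Csf1r at 0.52. The median signal of the list was 7.18 to 7.76 over the PBS arrays and 7.85 to 8.60 over the HDM arrays. Of 6 natural killer cell markers 3 fell, Gzma with a difference of −1.63, Klrd1 of −1.21 and Prf1 of −0.82, and the same number fell with the block, with list medians of 6.95 to 7.34 in PBS and 6.23 to 7.01 in HDM. Of 12 markers of epithelium, endothelium and fibroblasts 1, Pecam1, fell by 0.51. With the block 5 of these 12 fell, which added Cdh5 at −0.90, Pdgfra at −0.76, Kdr at −0.57 and Sftpc at −0.40, and the list medians were 7.28 to 8.16 in PBS and 7.39 to 7.83 in HDM. The HDM mean was higher in 3 of the 12, and in 1 of them all HDM values lay above all PBS values. Of 7 B cell and 9 granulocyte markers 0 passed in either fit by limma, and 1 granulocyte marker was lower at an unadjusted p under 0.05. By limma 0 of 15 proliferation genes passed without the block, 3 were higher at an unadjusted p under 0.05, and 5 rose with the block, among them Mki67, a marker of cycling cells, at 0.64. Of all genes 1.56% fell and 2.39% rose without the block, and 6.01% and 5.95% with it. The part of these cells or of cycling in the snoRNA values was not tested.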

How the data were processed

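RNA of 3 HDM and 3 PBS samples of sorted lung CD4 T cells was measured on 1 array each. The authors deposited log2 signals per probe set made with RMA, per the submitters' processing notes, which give no version. Since RMA equalises the arrays' distributions, differences in total RNA are not visible. Arrays have no read depth, and their number limits the precision. Of 33960 probe sets, 23521 had exactly 1 gene symbol in the platform annotation, and these gave 22180 genes, each by its probe set with the highest mean. No gene was filtered for low signal.

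HDM minus PBS differences were fitted with limma 3.58.1 in R 4.3.3, with moderated variances that follow a trend in intensity. Two-sided p-values were adjusted by Benjamini-Hochberg over 22180 genes, with 0.05 as threshold. "Fell" and "rose" are used of genes that passed. What the replicate numbers mark is not stated. Arrays of the same number deviated from their groups together, with correlations of 0.43, 0.17 and 0.53 over all genes, each above the minimum of 0.1. PBS replicate 1 and HDM replicate 2, of different number, correlated at 0.25, above the pair numbered 2. A fit with the number as a block is quoted where it alters a call or count given here, and the pairing rests on the data. The test was checked on simulated data.

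The 73 members all matched RefSeq by gene ID. A host was the RefSeq gene whose span holds the snoRNA; where several did, a list of hosts from general knowledge settled 3 members, and 3 stayed unsettled. Strand was not used for the snoRNAs, although it had been planned. Promoter windows came from RefSeq (GRCm38.p6). snoRNA sequences were not used here. Of a list of 10 imprinted brain snoRNAs, 0 were measured on a probe set of their own.

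Members and lists were chosen with earlier results of these data known. Genes named were members that passed in either fit (the 12 with the largest difference), the 6 brightest of each family, the snoRNAs of pre-rRNA cleavage, members of hosts with 3 or more of them, the hosts, and the core proteins, with up to 3 genes of each other list. Other genes were named after their values were seen.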

Additional observations from a re-analysis of the deposited data

How the results depend on the processing

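Without the replicate block, 3 members fell, 2 Snora and 1 Snord. The share of all genes called lower is given in brackets beside a total and was 1.56% in this fit, so a larger count is not about the members alone. With the replicate block the counts were 26 (6.01%), 10 and 16, and with array weights 17 (4.16%), 4 and 13. Above the median of mean signal 7 (5.02%) fell, 4 of them Snord, and above the 25th percentile 2 Snord genes fell. Repeated quantile normalization, centring on array medians and no intensity trend each left 1 Snora gene. At an adjusted p under 0.1 there were 10 (3.23%), 7 of them Snord. Without both arrays numbered 3, added after seeing the data, 28 (5.98%) fell, 8 Snora and 20 Snord. Leaving out 1 array gave 0 to 11 members, 0 to 4 Snora and 0 to 8 Snord genes. The count of members that rose was 0 in each of these settings. The Snora median ran from −0.34 to −0.23 and the Snord median from −0.41 to −0.24 when 1 array was left out. In these fits the pairs of snoRNA and host with equal sign ran from 38 to 53, beside 48. That count depends on how common a lower mean is in both. Snord22 was called in 14 of 17 alternatives, Snora30 in 13 and Snora28 in 10, with the same sign in each.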

Other observations

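The 27 symbols without a probe set of their own were read from 43 probe sets that list several genes, so their values cannot be assigned to 1 gene. Leaving aside the Snord116 copies, 26 of 27 such probe sets had a lower mean in HDM, with a median difference of −0.38. All HDM values lay below all PBS values in 13 of them, and the opposite order occurred in 0. Among the 22180 genes measured on probe sets of 1 symbol, 51.6% had a lower mean, 11.8% had all HDM values below and 10.8% had them above. Some symbols, such as Snora17, occur on more than 1 of these probe sets, and many of the probe sets also list a host gene. The lowest, at −1.08, lists Snora70, Gm5621 and the ribosomal protein gene Rpl10, so that the snoRNA and the gene it lies in are on the same probe set.

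The 16 probe sets of Snord116l1 and Snord116l2, which are copies in an imprinted cluster known for its role in the brain, held identical values and count as 1 measurement. It read between 6.84 and 7.22 in the PBS arrays, and 8.73, 9.39 and 7.07 in HDM replicates 1, 2 and 3. HDM replicates 1 and 2 were above all PBS arrays, and HDM replicate 3 lay within their range. The difference of group means was 1.38, with an SD of 0.19 in PBS and 1.19 in HDM, and its direction was opposite to that of most snoRNA genes.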
